A study of Penicillium oxalicum with 6 samples.

Results

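Penicillium oxalicum is a filamentous fungus whose secreted enzymes break down plant cell walls. Its longest genes were compared between 2 strains, MuPOX05503, which is mutated in POX05503, and Ku70, which is mutated in the gene of that name. A length was derived for each gene from its deposited values, as its share of the library's expected counts divided by its FPKM (fragments per kilobase of gene, scaled to the depth of the library). Libraries with an FPKM of at least 0.5 were used, and the median over them was taken. Of 9834 genes, 77 (0.783%) had an implied length of 6000 bases or more and are the very long genes described here. Another 9299 genes were shorter, and 458 did not reach that FPKM in any library and have no length. The longest gene came to 24453 bases, against a median of 1183 bases over all genes with a length. The length of 74 of the 77 rests on all 6 libraries, and some of the others rest on 1 library only. For no very long gene did the highest and lowest estimate differ by more than a factor of 1.0136. Since FPKM is itself a count divided by a length, this closeness is largely built in and is no test of the lengths. Very long genes nearest to the threshold had lengths of 6055, 6067 and 6142 bases, and the nearest shorter genes 5977, 5961 and 5911 bases. Whether introns or untranslated regions count towards these lengths is not given in the sources used here.

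There were 3 libraries of each strain, from mycelium moved to liquid medium holding 1% Avicel (microcrystalline cellulose) and grown with shaking for 24 h. Ku70 is a protein of non-homologous DNA end joining, and fungi that lack it are common parents for targeted gene deletion. The protocol of every library speaks of Ku70-mutant spores, but the labels leave unsaid whether MuPOX05503 has that mutation as well. The series addresses protein kinases that control cellulase and xylanase genes, and no statement in the labels separates the libraries of a strain into different cultures, so p-values measure the spread between libraries, which may be technical.

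In fungi, genes of this size are known to encode very large multidomain proteins. Among them are polyketide synthases and nonribosomal peptide synthetases, which assemble secondary metabolites and often sit in gene clusters that are silent under many growth conditions. Others encode proteins of general cell function, such as the heavy chain of dynein, fatty acid synthase and the TOR kinase. The deposited tables do not pair identifiers with gene products, and 0 identifiers matched the gene table that RefSeq holds for this species, so no very long gene can be assigned to any of these classes. Apart from the first pairs that rose and fell, genes are therefore described by their length and level.

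The libraries held 13653016 to 14263916 expected counts in total, and a very long gene took 39.7 to 22914 counts on average, with a median of 1251. POX05503 itself had a count of 0 in each MuPOX05503 library and of 470 to 539 in the Ku70 libraries. No replicate pair was as close as counting noise would make it, with a chi-square per degree of freedom of 10.2 to 45.8 between libraries of a strain. Libraries of a strain differed in how they represented long genes. Over the 73 very long genes tested, Ku70 replicate 1 deviated from the mean of its strain by a median of 0.15 on the log2 scale, Ku70 replicate 3 by -0.11, and the other 4 libraries by -0.06 to 0.05. Results that rest on this are given with and without Ku70 replicate 1 under the length classes. In RNA from whole mycelium, less RNA per cell and fewer cells making it cannot be told apart.

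Most very long genes were expressed at a modest level in both strains and differed little between them, while 13 differed at least 2-fold. Of the 77, 73 had 1 FPKM or more in at least 3 libraries and were tested among the 8801 genes that passed this filter. By edgeR's quasi-likelihood test with Benjamini-Hochberg adjustment over all tested genes, 15 very long genes rose and 25 fell in MuPOX05503 at an adjusted p under 0.05, and 33 did not pass. The 40 that passed are 54.8% of those tested, beside 64.4% of all tested genes. By direction, 20.5% rose and 34.2% fell, beside 31.9% and 32.6% of all tested genes. At least 2-fold changes were found in 6 that rose and 7 that fell, or 8.22% and 9.59%, beside 11.5% and 13.9% of all tested genes. The median log2 fold change, MuPOX05503 over Ku70, was -0.12, and over all tested genes it was 0.01. The median absolute log2 fold change was 0.33, against 0.50 over all tested genes, and it was under 0.5 in 47 of the 73 (64.4%), against 50.1% of all tested genes.

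The balance of directions depended on how libraries were scaled. With TMM factors 37.5% of the very long genes that passed were higher in MuPOX05503, beside 49.4% of all genes that passed. With library totals, which moved the median of all tested genes to 0.12 on the log2 scale, 18 very long genes were higher and 17 lower at a median of 0.00, so that 51.4% were higher, beside 57.8% of all genes that passed. With upper-quartile factors 14 were higher and 28 lower at a median of -0.16, so that 33.3% were higher, beside 46.3% of all genes that passed. Values of FPKM below are as deposited, without TMM factors, while edgeR's fold changes are on the TMM scale.

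**Figure D1:**
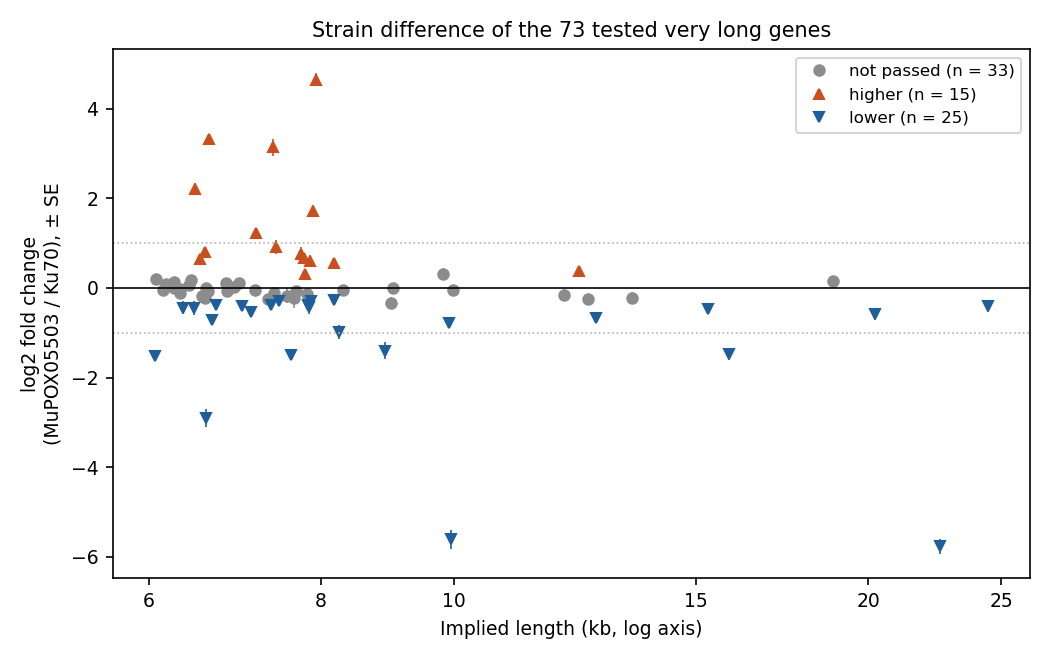
Log2 fold change (MuPOX05503 over Ku70, TMM scale) with its standard error against implied length in kilobases for the 73 tested very long genes. Triangles pointing up rose (15), triangles pointing down fell (25) and grey points did not pass (33); dotted lines mark 2-fold, which no gene over 8 kb exceeded upwards.

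The 6 very long genes that rose at least 2-fold were all between 6482 and 7940 bases long. POX03475, of 7940 bases, was at 102.55, 80.18 and 90.82 FPKM in the 3 MuPOX05503 libraries and at 3.63, 3.22 and 3.19 FPKM in the Ku70 libraries. In MuPOX05503 it was the second of the very long genes by level, and the strains did not overlap. Its level rose 25.2-fold (log2 fold change 4.65 with an SE of 0.14, edgeR adjusted p = 7.14e-09), the largest rise among the 73.

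POX01430, of 6634 bases, had the highest FPKM of all very long genes in MuPOX05503. Its level was 259.46, 260.56 and 264.33 FPKM there and 26.84, 23.06 and 22.76 FPKM in Ku70. The 3 MuPOX05503 libraries lay close together, with an SD of 2.55 around a mean of 261 FPKM, far above every Ku70 library. It rose 9.99-fold (log2 fold change 3.32 with an SE of 0.12, edgeR adjusted p = 1.97e-08) and took 0.174 ± 0.00169% of all counts in MuPOX05503 against 0.0160 ± 0.00149% in Ku70 (SD, n = 3).

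The 7380-base gene was at 43.91, 27.81 and 32.97 FPKM in MuPOX05503 and at 4.33, 3.10 and 3.54 FPKM in Ku70. Its lowest MuPOX05503 library was over its highest Ku70 library by a wide margin. It rose 8.81-fold (log2 fold change 3.14 with an SE of 0.19, edgeR adjusted p = 4.33e-07). The 7890-base gene stood at 43.72, 57.19 and 53.32 FPKM in MuPOX05503 and at 15.28, 14.45 and 13.56 FPKM in Ku70, a 3.30-fold rise (SE 0.13 on the log2 scale, edgeR adjusted p = 2.03e-06). Here replicate 1 was the lowest MuPOX05503 library, where for the 7380-base gene it was the highest.

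The remaining pair that rose at least 2-fold was weakly expressed. In Ku70 the 6482-base gene was near the filter on low values, at 0.80, 0.72 and 0.60 FPKM or 54 to 74 counts, and it stood at 3.88, 3.38 and 3.38 FPKM in MuPOX05503, a 4.63-fold rise (edgeR adjusted p = 6.62e-07). It passed the filter only through its MuPOX05503 libraries. The 7179-base gene was at 7.60, 8.27 and 7.86 FPKM in MuPOX05503 and at 3.26, 3.16 and 2.98 FPKM in Ku70, a 2.34-fold rise (edgeR adjusted p = 1.99e-06). Another 9 genes rose by less, from 1.24-fold upwards, and in all 15 the FPKM of the strains did not overlap. These 15 were picked for having passed, and no share over all genes that passed and rose was taken. Whether or not they passed, 39 of the 73 (53.4%) and 71.4% of all tested genes did not overlap.

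**Figure D2:**
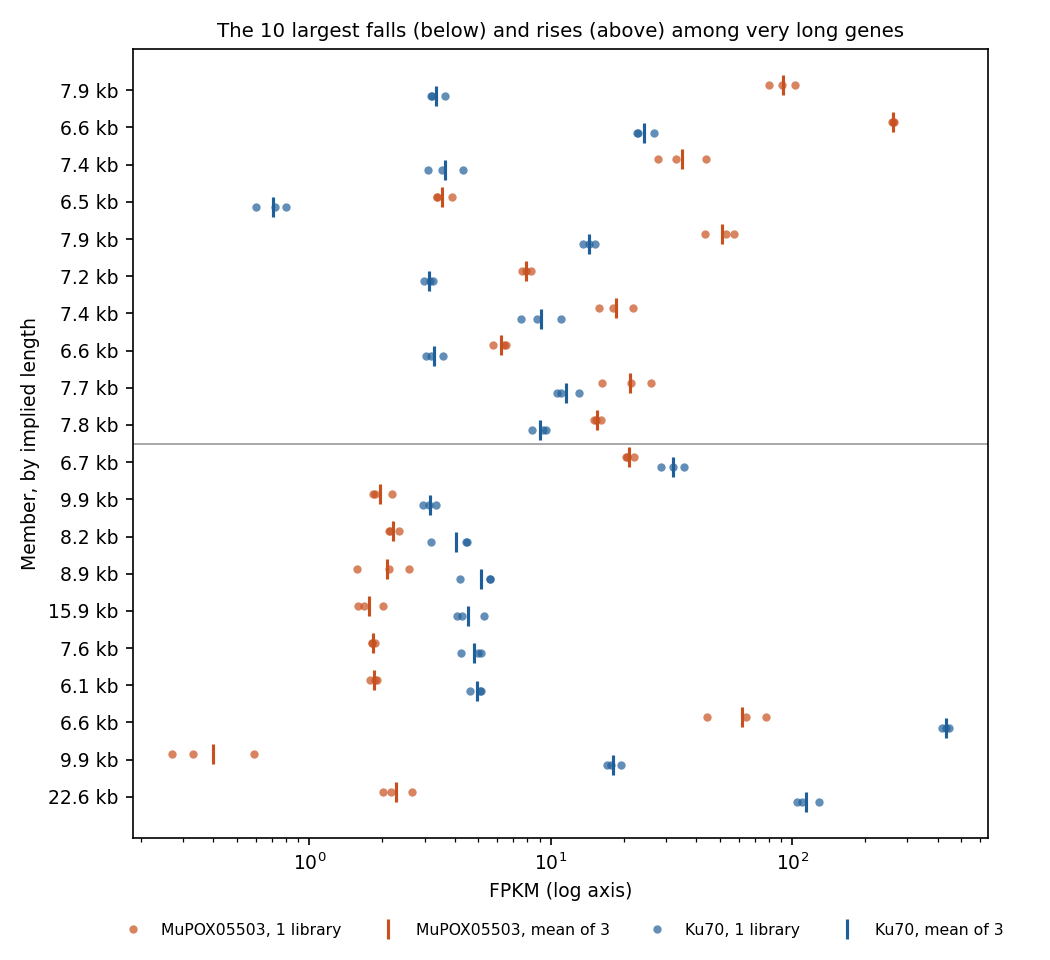
FPKM (log axis) in each of the 6 libraries for the 10 very long genes with the largest rises (above the line, largest at the top) and the 10 with the largest falls (below it, largest at the bottom), chosen among those whose strains did not overlap and labelled by implied length. Dots are libraries and bars are means of 3 libraries; the top gene goes from 3.35 to 91.2 FPKM and the bottom gene from 114 to 2.28 FPKM.

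The 7 very long genes that fell at least 2-fold spanned nearly the whole range of lengths, from 6055 to 22575 bases. POX09340, of 22575 bases and next to the longest, was at 128.52, 110.09 and 104.19 FPKM in Ku70 and at 2.65, 2.01 and 2.17 FPKM in MuPOX05503. In Ku70 it was the second in FPKM among very long genes, and its length and level together gave it 32796 to 41349 counts per Ku70 library, against 619 to 831 in MuPOX05503. It fell 54.3-fold (log2 fold change -5.76 with an SE of 0.17, edgeR adjusted p = 7.26e-09), the largest fall among the 73.

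POX03931, of 9949 bases, was at 17.12, 19.49 and 17.78 FPKM in Ku70 and at 0.59, 0.27 and 0.33 FPKM in MuPOX05503. The latter values rest on 82, 37 and 45 counts, so the gene was still detected there. It passed the filter only through its Ku70 libraries, and its length rests on 4 libraries. It fell 49.0-fold (log2 fold change -5.61 with an SE of 0.22, edgeR adjusted p = 2.56e-08). The pseudocount of limma on log2(FPKM + 1) shrank the log2 fold change to -3.78, as it does for values this low.

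The gene with the highest FPKM of the very long genes in Ku70, of 6603 bases, was at 433.17, 444.99 and 418.59 FPKM there. In MuPOX05503 it was at 44.36, 77.60 and 64.52 FPKM, with replicate 1 the lowest. It fell 7.49-fold (log2 fold change -2.90 with an SE of 0.20, edgeR adjusted p = 1.18e-06), and from 0.285 ± 0.00870% to 0.0411 ± 0.0111% of all counts (SD, n = 3).

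The other 4 genes that fell at least 2-fold were weakly expressed in both strains, and their falls were of like size. Their mean FPKM was 4.55 to 5.13 in Ku70 and 1.76 to 2.10 in MuPOX05503, and they were 15851, 8909, 7610 and 6055 bases long. The 15851-base gene was at 5.28, 4.30 and 4.07 FPKM in Ku70 and at 2.02, 1.59 and 1.68 FPKM in MuPOX05503 (2.79-fold lower, edgeR adjusted p = 6.91e-06). For the 7610-base gene the values were 4.99, 5.16 and 4.23 FPKM in Ku70 and 1.87, 1.82 and 1.82 FPKM in MuPOX05503 (2.82-fold lower, edgeR adjusted p = 2.13e-06). Some of its counts were not whole, by at most 0.1 counts. In all 4 the strains were apart in every library.

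A further 18 very long genes fell by less than 2-fold, from 1.21-fold upwards. In 6 of the 25 that fell the FPKM of the strains overlapped. Overlap was judged on deposited FPKM, and without TMM factors the median log2 fold change of all tested genes was 0.12, against 0.01 with them. Whether that scale bears on the number of overlaps was not tested, and no share over all genes that fell was taken. In the third most abundant very long gene of Ku70, of 7120 bases, the level was 81.07, 72.78 and 64.70 FPKM in Ku70 and 51.47, 53.32 and 58.67 FPKM in MuPOX05503, a 1.44-fold fall (edgeR adjusted p = 0.0037). The nearest libraries of the strains, at 58.67 and 64.70 FPKM, were closer to each other than the extremes within Ku70.

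The 33 genes that did not pass had log2 fold changes from -0.33 to 0.31. For all 33 the estimate with 2 standard errors on either side stayed within a 1.59-fold difference, a bound on the change and not a sign that it was absent. The 9026-base gene was at 15.10, 12.50 and 12.13 FPKM in MuPOX05503 and at 12.87, 12.04 and 11.55 FPKM in Ku70 (log2 fold change 0.01 with an SE of 0.10). Its strains overlapped. The 8297-base gene was at 13.98 to 14.77 FPKM in MuPOX05503 and 12.88 to 14.46 FPKM in Ku70 (log2 fold change -0.04 with an SE of 0.09), and the 6257-base gene at 10.21 to 10.91 and 8.94 to 10.57 FPKM (log2 fold change -0.01 with an SE of 0.09). The gene of 6584 bases that was the third by level in MuPOX05503 stood at 55.69, 63.13 and 68.55 FPKM there and at 70.65, 66.06 and 65.88 FPKM in Ku70 (log2 fold change -0.22 with an SE of 0.11, edgeR adjusted p = 0.113).

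Of the 5 longest genes, 4 fell and 1 did not pass, beside 32.6% lower and 64.4% called of all tested genes, and the falls had very different sizes. The longest, of 24453 bases, was barely expressed, at 1.40, 1.04 and 1.17 FPKM in Ku70 and 1.09, 0.87 and 0.99 FPKM in MuPOX05503, with overlap between strains. Its fall was 1.32-fold (log2 fold change -0.40 with an SE of 0.14, edgeR adjusted p = 0.0266). It no longer passed without Ku70 replicate 1, where the log2 fold change was -0.26, without MuPOX05503 replicate 2 (-0.32) or 3 (-0.40), with library totals (-0.29), or with limma at a pseudocount of 1 (-0.15) or 0.1 (-0.26). The 20220-base gene, next in length after POX09340, was at 19.94, 15.77 and 17.20 FPKM in Ku70. In MuPOX05503 it was at 13.50, 12.21 and 12.20 FPKM, without overlap, a 1.51-fold fall (edgeR adjusted p = 0.00137). The 18846-base gene was at 15.68, 14.53 and 15.35 FPKM in Ku70 and at 21.00, 16.01 and 17.76 FPKM in MuPOX05503, and did not pass (log2 fold change 0.15 with an SE of 0.11, edgeR adjusted p = 0.257).

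Along gene length, the share of genes that fell was greatest in the longest classes, which hold few genes. Of the 11 tested genes of 10000 bases or more, 6 fell and 1 rose, with a median log2 fold change of -0.40, where 32.6% of all tested genes fell. Among the 11 of 8000 to under 10000 bases, 5 fell and 1 rose, with a median of -0.27. The 24 genes of 7000 to under 8000 bases were balanced, 9 higher and 8 lower, with a median of -0.13. Of the 27 genes of 6000 to under 7000 bases only 4 rose and 6 fell, 37.0% in all, with a median of -0.01. In the classes just below the threshold, of 5000 to under 6000 and 4000 to under 5000 bases, the medians were -0.03 and 0.02, and the highest median was 0.13, in the 1188 genes of 2000 to under 3000 bases. Among the 73 very long genes, length and log2 fold change had a Spearman correlation of -0.24, a description across genes of the same libraries. Over all 8801 tested genes it was 0.05.

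The libraries themselves differed along gene length, and most within Ku70. Each library's log2 CPM (counts scaled to library size, with TMM factors) were set against the mean of its strain, and the median deviation was taken per length class. For genes of 10000 bases or more it was 0.21, -0.07 and -0.14 in Ku70 replicates 1 to 3 and 0.07, -0.13 and 0.04 in MuPOX05503 replicates 1 to 3. For genes under 1000 bases it was -0.05, 0.02 and 0.03 in Ku70 and at 0.00 in all MuPOX05503 libraries. Ku70 replicate 1 was thus high for very long genes and Ku70 replicate 3 low. From the class of 6000 to under 7000 bases upwards the deviation was 0.13, 0.15, 0.12 and 0.21 in the former and -0.12, -0.09, -0.11 and -0.14 in the latter. Of the 73 very long genes, 58 had their highest Ku70 value in replicate 1, and 51 their lowest in replicate 3. In MuPOX05503, 45 were highest in replicate 1 and 47 lowest in replicate 2.

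Leaving out Ku70 replicate 1 took the median log2 fold change of the very long genes from -0.12 to -0.02, and the number that fell from 25 to 18, with 15 still counted higher. The median of the genes of 10000 bases or more was then -0.26, and without Ku70 replicate 2 it was -0.50. Without Ku70 replicate 1, 5 of these 11 genes fell and 1 rose, and of the 11 genes of 8000 to under 10000 bases 4 fell and 1 rose, beside 31.2% of all tested genes lower in that fit. Between 7000 and 8000 bases 9 were then higher and 6 lower, and between 6000 and 7000 bases 4 and 3. The Spearman correlation of length and log2 fold change was -0.24 in that fit too. Without MuPOX05503 replicate 2 or 3 the median of the very long genes was -0.04 or -0.07, and without Ku70 replicate 3 it was -0.16. The median of all tested genes stayed between 0.01 and 0.02 throughout. The part of these differences between libraries in the small falls of long genes was not tested. The number with at least a 2-fold change was 13 or 14 in each of these 6 fits.

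**Figure D3:**
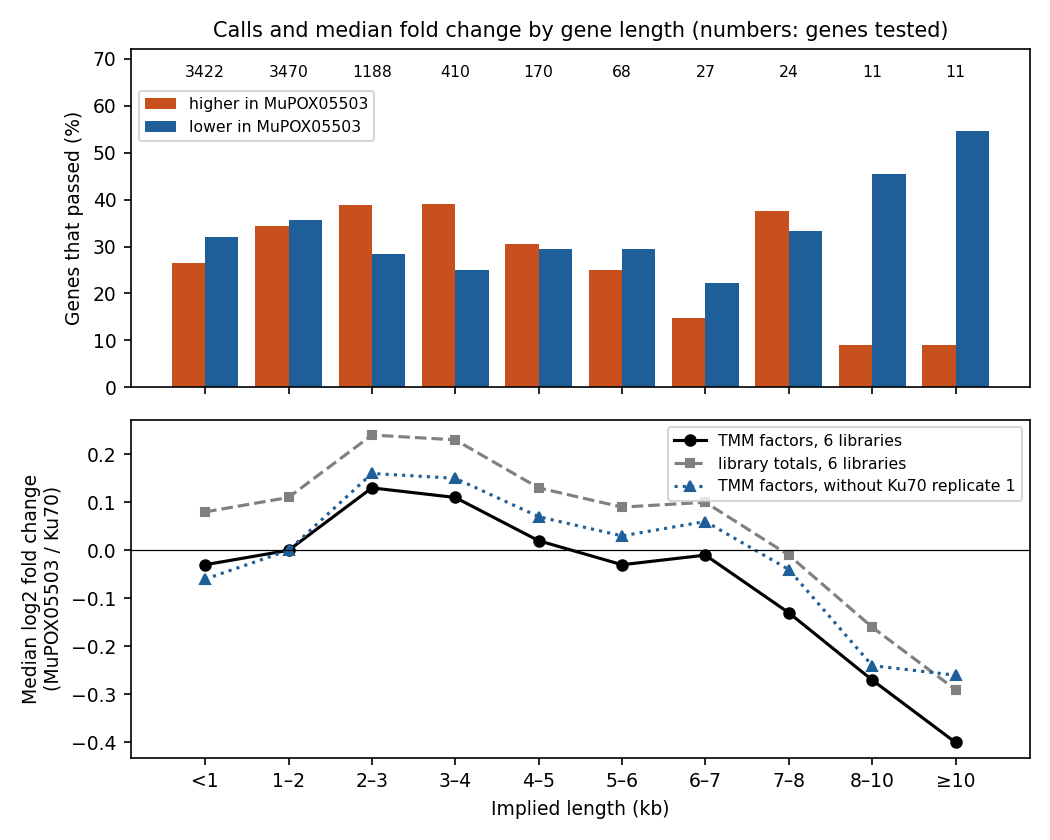
Above, the share of tested genes (%) in each length class that rose or fell in MuPOX05503, with the number tested; below, the median log2 fold change of each class with TMM factors, with library totals and without Ku70 replicate 1. In all 3 lines the 2 longest classes have the lowest medians, -0.27 and -0.40 with TMM factors.

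**Figure D4:**
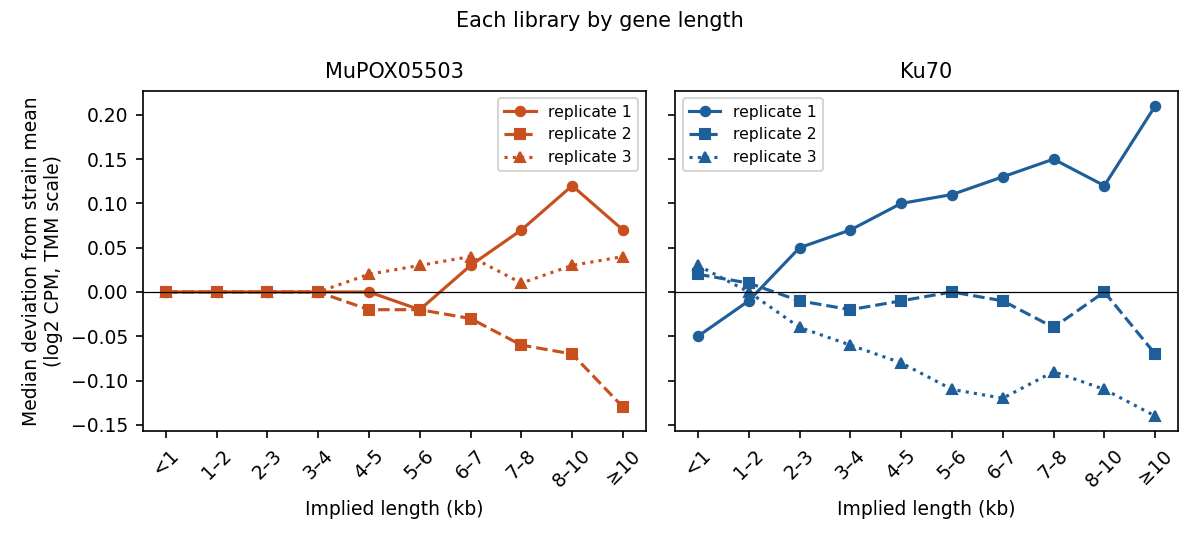
Median deviation of each library from the mean of its strain (log2 CPM, TMM scale) by implied length in kilobases, for the 3 libraries of each strain. Ku70 replicate 1 reaches 0.21 and Ku70 replicate 3 -0.14 in the longest class, while genes under 1 kb stay within -0.05 and 0.03.

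Shorter genes of like level were set beside the very long genes, as a description with no test. For each of the 73, the 10 shorter genes nearest in mean FPKM were taken, which gave 681 different genes with a median length of 1364 bases and a median mean FPKM of 12.7, equal to that of the very long genes. Of these, 64.8% passed (31.6% higher and 33.2% lower), against 54.8% of the very long genes. At least 2-fold changes were found in 27.6%, against 17.8%, and the median absolute log2 fold change was 0.56, against 0.33. Because a long gene collects more reads at the same FPKM, these shorter genes had a median of 237 counts, against 1318 for the very long genes. Among 694 shorter genes nearest in mean expected count, 67.1% passed, 26.7% changed at least 2-fold and the median absolute log2 fold change was 0.47. Between replicates, the median coefficient of variation of FPKM was 8.77% in MuPOX05503 and 9.12% in Ku70 for the very long genes, 8.32% and 8.29% for the set nearest in count, and 11.4% and 10.2% for the set nearest in FPKM.

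Per unit of length, very long genes were less expressed than typical genes of the table. For the 77, mean FPKM over the 6 libraries had a median of 12.3 and quartiles of 4.49 and 19.8, and for all 9834 genes the median was 23.6. Among tested genes the median was 12.7 for the 73 very long genes and 28.5 for all, the latter with quartiles of 11.7 and 70.3. A mean above 100 FPKM in either strain was reached by 3 of the 77, of 6603, 22575 and 6634 bases. Along the length classes the median mean FPKM was 34.1 for genes under 1000 bases and 7.03 for those of 10000 bases or more.

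Together the 77 genes took 1.43, 1.32 and 1.25% of all counts in the Ku70 libraries and 1.13, 1.07 and 1.12% in the MuPOX05503 libraries. All Ku70 libraries were above all MuPOX05503 libraries. The 7 genes that fell at least 2-fold went from 0.580 ± 0.0336% to 0.0538 ± 0.0102%, and the 6 that rose from 0.0355 ± 0.00284% to 0.320 ± 0.00919% (SD, n = 3). The other 64 genes took 0.719 ± 0.0538% in Ku70 and 0.733 ± 0.0304% in MuPOX05503, which overlapped. In Ku70, POX09340 and the 6603-base gene alone held 0.258 ± 0.0284% and 0.285 ± 0.00870%.

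By identifier number, each of the 4 genes named here, picked for the largest changes, had a direct neighbour that changed at least 2-fold in the same direction. The 7890-, 7380- and 6603-base genes had one too. The 15851-, 8909-, 7610-, 7179-, 6482- and 6055-base genes, also changed at least 2-fold, had none among tested neighbours. Over all genes with at least a 2-fold change, the share with such a neighbour was not taken. Whether the numbers follow the chromosomes is not given in the sources used here. POX09340 and the 6603-base gene were 8 numbers apart and formed the ends of an unbroken stretch of 9 consecutively numbered genes that all fell at least 2-fold, with log2 fold changes from -6.23 to -2.45. The genes numbered directly after POX09340 rose, at 1.31 and 1.00 on the log2 scale, and the next one fell, at -1.14. Those directly before the 6603-base gene fell too, at -0.92 and then -2.63. POX03931 was the last of 5 consecutive genes that fell at least 2-fold, with log2 fold changes from -5.61 to -3.20. The log2 fold change was -0.77 for the gene after it and -1.37 for the next. POX01430 was the first of 4 consecutive genes that rose, with log2 fold changes from 1.12 to 3.32. POX03475 and the gene after it rose, at 4.65 and 2.72, while the gene before it fell by 0.95.

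Over the 13 very long genes with at least a 2-fold change, 12 of 23 tested direct neighbours (52.2%) passed in the same direction, and over all genes with at least a 2-fold change 49.4% did. For the 40 that passed at any size it was 27 of 67 (40.3%), and 41.8% for all genes that passed. Very long genes were themselves next to each other on 2 occasions. The 8241-base and 7610-base genes, numbered directly after each other, fell 1.98-fold and 2.82-fold, and the 7835-base and 12672-base genes had log2 fold changes of -0.39 and -0.67. Reads of overlapping neighbours cannot be told apart where they lie on opposite strands, since the strand setting of the counting is not given in the sources used here.

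Counts more than 0.005 from a whole number in at least 1 library occurred in 9 of the 77 genes (11.7%) and in 3.87% of all genes. At a tolerance of 0.1, chosen after the data were examined, it was 0 of the 77 and 0.87% of all genes, so the higher share of very long genes depended on the tolerance. None of the 4 genes named by identifier was among them.

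The 4 very long genes below the filter on FPKM were at 0.29 to 1.14 FPKM, which for genes of this length still meant 30 to 200 counts per library. With a filter on counts in place of FPKM, all 77 were tested. Then 1 of the 4 passed, of 12324.7 bases (log2 fold change -0.65 with an SE of 0.17, edgeR adjusted p = 0.00827), and 15 very long genes were higher and 26 lower. Of the very long genes that passed with this filter 36.6% were higher, beside 49.6% of the shorter genes that passed.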

How the data were processed

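Per the file headers, the authors deposited for each of the 6 libraries an expected count (an estimated count per gene, not normalized) and an FPKM value for 9834 genes. Per the submitters' processing notes, the tools were RSEM 1.2.12, BWA 0.7.10-r789, DESeq2 and Bowtie2 2.1.0, and their roles are not stated. If RSEM made the FPKM values, the implied lengths are its effective lengths, somewhat shorter than the transcripts. For genome build, annotation and strand setting, nothing is given in the sources used here. Expected counts were rounded and tested with edgeR 4.0.16 (R 4.3.3, TMM factors, quasi-likelihood, strain as the only term), in a procedure tested on simulated data. Few genes changed in that simulation, so it could not test the scaling for data in which 64.4% of tested genes passed. Tested genes had to reach 1 FPKM in at least 3 libraries, and Benjamini-Hochberg adjustment ran over all of them. Alternatives were limma 3.58.1 on log2(FPKM + 1) or log2(FPKM + 0.1), DESeq2 1.42.0, other scalings, filters and length thresholds, and each library left out. Members and lists were chosen with earlier results of these data known. Named genes are the 10 highest and 10 lowest log2 fold changes among those that passed without overlap and reached a mean of 1 FPKM in either strain, the 5 longest, the 3 most abundant per strain, the nearest to 6000 bases and the 3 least changed at a mean FPKM of at least 10. Identifiers are printed for 2 that rose and 2 that fell. The 7835-, 12672- and 12324.7-base genes are outside this rule and were chosen after their values were seen.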

Additional observations from a re-analysis of the deposited data

How the results depend on the processing

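Upper-quartile factors and the length classes under other scalings or without a library were chosen after the data were examined. The 15 higher and 25 lower very long genes kept within 1.5 times those numbers under most alternatives. With limma on FPKM, which has no TMM factors, 16 were higher and 14 lower at either pseudocount. At a pseudocount of 1, 53.3% of those that passed were higher, beside 57.6% of all genes that passed. A length threshold of 5000 bases gave 32 higher and 45 lower of 141 tested, 13 of them at least 2-fold lower. One of 8000 gave 2 and 11 of 22 tested, with 0 and 4 at least 2-fold and a median log2 fold change of -0.30. Of all tested genes 31.9% were higher and 32.6% lower, and at least 2-fold 11.5% and 13.9%. At 8000 bases the 2 that rose did so by less than 2-fold; fewer genes are the construction of that threshold. The share of counts differed by -0.228 percentage points (MuPOX05503 minus Ku70), by -1.01 for a threshold of 5000 and by -0.149 for 7000; the cause was not tested. Leaving out each library gave 13 to 16 higher and 18 to 25 lower, with 6 to 7 higher and 7 to 8 lower at least 2-fold. In those fits 32 to 39 of the 73 passed, beside 57.1 to 63.7% of all tested genes. Medians were -0.16 to -0.02 and share differences -0.269 to -0.18. DESeq2 called 40, all shared with edgeR in the same direction. Of these 37.5% were higher, beside 49.2% of all genes that DESeq2 called. The replicate block called 40 (16 higher, 24 lower), 38 of them shared, and its share over all genes was not taken. Over all tested genes, deviations of libraries with the same letter in the title correlated at 0.019, -0.045 and -0.029. Nearly all of these genes are under 6000 bases, so whether libraries pair for very long genes was not tested. There the median deviation was highest in replicate 1 of both strains (0.05 in MuPOX05503, 0.15 in Ku70). It was lowest in MuPOX05503 replicate 2 (-0.06) and Ku70 replicate 3 (-0.11). Of 360 values of the 30 named genes tested, 336 kept direction and side of the threshold, 6 were weaker (all of the longest gene) and 3 gained significance. Another 15 changed sign, all within 0.10 of zero and in genes that did not pass: the 6142-base gene at 0.06 with totals and both limma fits; the 9026-base gene at -0.03 with upper-quartile factors, -0.08 without MuPOX05503 replicate 1 and -0.04 without Ku70 replicate 3; the 6257-base gene at 0.10, 0.09 and 0.10 with totals and limma, and -0.09 to 0.06 with each library left out, 0.01 without MuPOX05503 replicate 2; and the 8297-base gene at 0.07, 0.06 and 0.07, and -0.10 to 0.02 with each library left out.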
